A study of Homo sapiens with 16 samples.

Results

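Gene expression after stimulation with PT-G, a pepsin-trypsin digest of wheat gliadin, was compared directly with gene expression after stimulation with p31-43, a synthetic gliadin peptide, in Caco-2 cells. The comparison used all arrays titled for either treatment, which gave 4 PT-G and 4 p31-43 arrays, 8 of the 16 arrays of the series. Caco-2 is an established human colon carcinoma line that serves as a model of the intestinal epithelium, and the cells were stimulated for 6 h while undifferentiated. The p31-43 peptide was used at 150 µg/ml, whereas the concentration of PT-G is not given in the sources used here. PT-G also carries the heat-inactivated digestion mix, which was given alone in a further 4 cultures (PT), and 4 cultures were kept in medium (MED-CTL). All cultures are of a single tumour-derived line without immune cells, and the replicates are 4 independent experiments that lay 1 to 2 passages apart. Replicate numbers in the array titles are taken here as the numbers of these experiments.

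Gliadin is the alcohol-soluble fraction of wheat gluten, and fragments of it that resist digestion drive the immune reaction of coeliac disease. Some fragments are presented to T cells, while p31-43 is studied because it acts on cells without being presented, and it has been linked to epithelial stress, delayed endosome traffic and growth factor signalling. When growth factors, proteases or stress act on an epithelial cell, the mitogen-activated protein kinase (MAPK) cascade switches on immediate early genes. Their transcripts need no new protein to appear, and many encode transcription factors such as the EGR, FOS and JUN families. The cascade then induces its own inhibitors, among them dual specificity phosphatases (DUSP) and Sprouty proteins, and NF-kB, a second stress pathway, induces chemokines and adhesion molecules.

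Values are log2 intensities as the authors deposited them after quantile normalization, so a difference of 1 is a doubling. Differences are given as PT-G minus p31-43, from a limma model of all 4 groups. A probe was called when its adjusted p (Benjamini-Hochberg over 41000 probes) was under 0.05. Median foreground intensities were 178 to 240.5 on the PT-G arrays and 222 to 346 on the p31-43 arrays, and 29573 to 32439 spots per array were well above background. All 9 epithelial and Caco-2 markers were well above background on all 8 arrays. Markers of other cell types were measured too. Of 8 leukocyte markers, 4 (CD3E, CD14, LYZ and CD68) were well above background on all 8 arrays, while PTPRC, which all leukocytes carry, and MS4A1 were so on none. Of 5 endothelial markers, PECAM1 and VWF were well above background on all 8 arrays and CDH5, KDR and TEK on none, and of 7 fibroblast markers 5 were so on all 8 and COL1A2 on none. The group means of these leukocyte, endothelial and fibroblast markers lay between 5.82 and 10.27. Those of the epithelial markers reached 18.15 but overlapped this range. Both group means of LGALS4 and of HNF4A, and the PT-G mean of CDX2, lay within it. None of the markers was called. In such bulk samples, fewer cells that use a gene and less RNA per cell cannot be told apart.

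PT-G and p31-43 cultures differed in 464 probes, 1.13% of those tested. Of these, 278 were higher with PT-G (0.678% of all probes) and 186 were lower (0.454%), which corresponded to 215 and 138 named genes. The higher probes also moved further. Of the 82 called probes that differed by more than 1 on the log2 scale, 68 were higher with PT-G and 14 lower, and the median difference was 0.75 among the higher and −0.62 among the lower probes. The PT-G and p31-43 arrays did not overlap for 463 of the 464 probes, against 5.76% of all probes, and all 464 differed in the same direction in each of the 4 experiments. Both follow largely from calling the 464 probes on these same arrays. The count depended on single arrays. It was 201 without p31-43 replicate 1 and also 201 without p31-43 replicate 4, 233 without PT-G replicate 2 and 250 without PT-G replicate 4. With the replicate number as a block in the model, which joins PT-G and p31-43 arrays of the same experiment, the count was 1814 (4.42%), 901 higher (2.2%) and 913 lower (2.23%), so the surplus of higher probes was not seen there, and all 464 probes were among the 1814. The arrays also carry a date, of what step is not given in the sources used here, by which the numbers of MED-CTL replicates 1 and 2 are crossed, and with that date (the run) as the block the count was 2556.

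**Figure D1:**
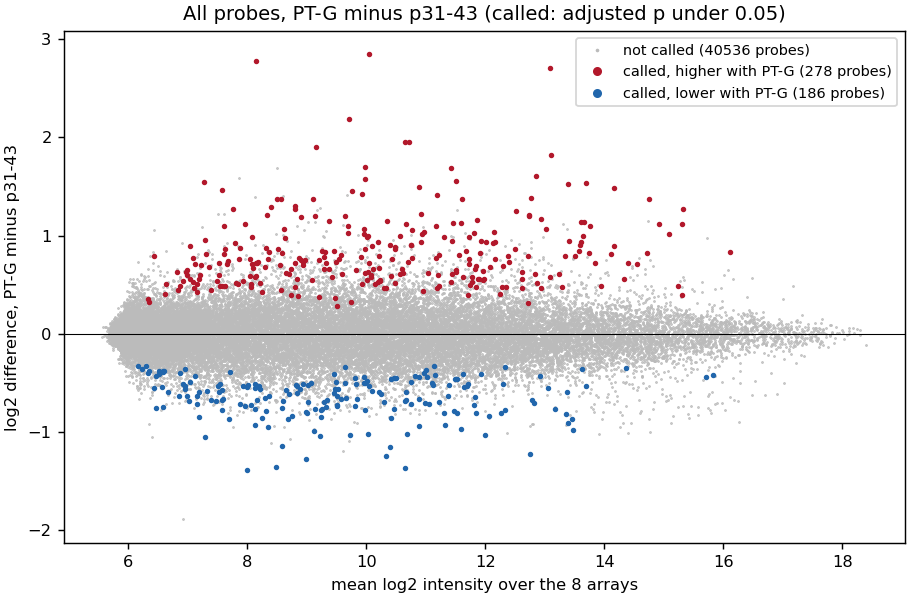
All 41000 probes, with the mean log2 intensity over the 8 arrays on the x axis and the log2 difference (PT-G minus p31-43) on the y axis. The 278 probes called higher with PT-G (red) reach up to 2.84, whereas the named genes among the 186 called lower (blue) reach down to −1.39.

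Transcription factors of the immediate early response led the genes that were higher with PT-G. EGR4, a zinc finger factor of the early growth response family, lay at 11.59, 12.13, 11.25 and 10.92 on PT-G replicates 1 to 4, and at 8.61, 10.09, 8.19 and 7.62 on the p31-43 replicates. Both groups were spread widely, with p31-43 replicate 2 well above the other p31-43 arrays, yet no p31-43 array reached the lowest PT-G array. The difference was 2.84 (SE 0.55, n = 4 arrays each, limma, adjusted p = 0.0229), a 7.17-fold higher level. Its relative EGR3 lay at 8.69, 9.45, 10.19 and 9.80 with PT-G and at 6.39, 7.39, 6.82 and 6.40 with p31-43, which is close to the lower end of the intensity scale. EGR3 was 2.78 higher with PT-G (SE 0.34, limma, adjusted p = 0.00137).

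Other families of transcription factors followed the EGR genes. MAFF, a small MAF protein that pairs with other leucine zipper factors, lay between 11.28 and 11.99 with PT-G and between 9.0 and 10.50 with p31-43, a difference of 1.95 (SE 0.37, limma, adjusted p = 0.0196). FOSL1, which encodes the AP-1 subunit FRA1, lay at 10.25, 10.65, 9.51 and 9.99 with PT-G and at 8.32, 8.94, 7.62 and 7.91 with p31-43. FOSL1 was 1.90 higher (SE 0.35, limma, adjusted p = 0.0176), and its other probe differed by 1.58. In both groups the second experiment gave the highest FOSL1 value and the third the lowest, and the difference within an experiment varied only from 1.71 to 2.08. NR4A3, an orphan nuclear receptor, lay at 7.73, 7.82, 8.30 and 8.29 with PT-G and at 6.54, 6.53, 6.47 and 6.44 with p31-43. The p31-43 arrays were nearly identical, and the difference was 1.54 (SE 0.19, limma, adjusted p = 0.00119). A further NR4A3 probe differed by 0.02, so the difference was seen with 1 of the 2 probes.

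The calls of EGR4, MAFF and FOSL1 rested on the full set of arrays. EGR4 and FOSL1 were not called when PT-G replicate 1 or 2 or p31-43 replicate 1, 3 or 4 was left out, and MAFF was not called without PT-G replicate 1 or 2 or p31-43 replicate 3 or 4. EGR3 and NR4A3 were called whichever of the 8 arrays was left out.

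The promoters of these leading factors are shown because the cyclic AMP and calcium response element, a classic entry point of signals to immediate early genes, has the core TGACG. RefSeq promoters (GRCh38.p14, 250 bases before to 50 after the gene start, 5′ to 3′ on the gene's strand) were held for 6 of the 12 leading genes that were higher with PT-G, and 3 of the 6 contained the core. Capitals mark TGACG or its reverse complement CGTCA. The regions are chr2:73293499-73293798 on the minus strand for EGR4, chr9:99821635-99821934 on the plus strand for NR4A3 and chr22:38201744-38202043 on the plus strand for MAFF.
EGR4: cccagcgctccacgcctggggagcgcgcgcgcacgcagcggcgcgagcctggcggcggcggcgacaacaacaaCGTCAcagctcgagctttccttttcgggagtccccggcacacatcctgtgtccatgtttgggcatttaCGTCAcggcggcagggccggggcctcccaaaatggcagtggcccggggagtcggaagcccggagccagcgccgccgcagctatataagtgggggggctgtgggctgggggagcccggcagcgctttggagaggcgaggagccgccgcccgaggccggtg
NR4A3: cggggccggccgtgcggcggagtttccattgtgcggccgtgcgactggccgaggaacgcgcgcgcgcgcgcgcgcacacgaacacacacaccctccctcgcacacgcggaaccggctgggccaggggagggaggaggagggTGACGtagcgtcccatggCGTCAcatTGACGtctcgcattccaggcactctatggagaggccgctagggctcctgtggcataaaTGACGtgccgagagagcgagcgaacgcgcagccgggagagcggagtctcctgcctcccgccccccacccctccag
MAFF: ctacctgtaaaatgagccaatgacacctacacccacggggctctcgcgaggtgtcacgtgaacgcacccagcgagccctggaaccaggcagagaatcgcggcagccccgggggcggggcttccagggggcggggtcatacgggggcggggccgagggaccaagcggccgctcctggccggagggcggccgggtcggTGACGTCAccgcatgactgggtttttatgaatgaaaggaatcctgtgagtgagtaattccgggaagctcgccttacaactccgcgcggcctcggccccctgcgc
The core occurred 4 times before the NR4A3 start and 2 times before the EGR4 start, at 177 and 109 bases. In MAFF the 2 matches overlap in the palindrome TGACGTCA, which 1.98% of 27305 RefSeq promoters hold. TGACG alone was present in 25.0% of all promoters, in 5 of the 10 promoters held for called immediate early factors and in 1 of the 8 held for the leading genes that were lower. The CArG box of serum response factor and the AP-1 site, present in 1.29% and 4.92% of all promoters, were in none of the promoters held for the 24 leading genes. A match describes letters in this window and not a bound site.

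Besides transcription factors and phosphatases, IER3, TNS4, PLK3, ARL14 and ANKRD1 were among the leading genes that were higher with PT-G. IER3, an immediate early protein that modulates cell survival, lay at 14.19, 14.44, 14.34 and 14.78 with PT-G and at 11.72, 12.18, 11.10 and 11.93 with p31-43. A gap of 2.02 separated the groups, and the difference of 2.71 (SE 0.24, limma, adjusted p = 0.000123) amounted to 6.53-fold. TNS4, a protein of the tensin family, lay at 10.09, 11.24, 11.08 and 10.80 with PT-G and at 7.98, 9.42, 8.62 and 8.46 with p31-43. Experiment 1 gave the lowest value in both groups, and TNS4 was 2.18 higher with PT-G (SE 0.35, limma, adjusted p = 0.00834). PLK3, a stress-responsive kinase, was 1.69 higher (SE 0.32, limma, adjusted p = 0.0195), between 11.87 and 12.72 against 9.90 and 11.32. ARL14, a small GTPase of the ARF-like family, was 1.69 higher (SE 0.29, limma, adjusted p = 0.0116). ANKRD1, an ankyrin repeat protein known as a transcriptional target of the YAP coactivator, was 1.61 higher (SE 0.33, limma, adjusted p = 0.0320). The calls of ANKRD1 and PLK3 were lost without PT-G replicate 1 or 2 or p31-43 replicate 3 or 4, and that of ANKRD1 also without PT-G replicate 3 or p31-43 replicate 1 or 2.

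Inhibitors of MAPK signalling were also higher with PT-G. DUSP5, a nuclear phosphatase of ERK, lay at 11.57, 11.79, 11.68 and 11.46 with PT-G and at 9.65, 10.08, 9.67 and 9.29 with p31-43. The values of each group lay close together, with an SD of 0.14 with PT-G and 0.32 with p31-43, and DUSP5 differed by 1.95 (SE 0.18, limma, adjusted p = 0.000194). DUSP6, its cytoplasmic counterpart, lay at 13.91, 13.92, 14.12 and 14.10 with PT-G and at 12.45, 12.88, 11.79 and 11.66 with p31-43, and was 1.82 higher (SE 0.24, limma, adjusted p = 0.00232). The PT-G values were almost constant, whereas with p31-43 the values of experiments 1 and 2 were above those of experiments 3 and 4, so that the difference within an experiment ran from 1.04 to 2.44. Of 19 MAPK feedback inhibitors on the array, 9 were higher with PT-G and none was lower (47.4% called, against 1.13% of all probes), and their median difference was 0.82, against 0.00 over all probes. This list was drawn up with earlier results of these data known and includes DUSP5 and DUSP6, so its share is a description.

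The called inhibitors covered several levels of the cascade. SPRY4, SPRY1 and SPRY2, Sprouty proteins that restrain receptor signalling to RAS, differed by 1.45, 0.84 and 0.82, respectively. DUSP4, a further phosphatase, differed by 1.06, and ERRFI1, which inhibits the EGF receptor itself, by 1.14. NAB2, a corepressor that binds EGR proteins, differed by 1.13, and RGS2, which shortens G protein signalling, by 1.38. DUSP1 differed by 0.93 without passing the test (limma, adjusted p = 0.0643, and 0.035 with the replicate number as a block), SPRED1 was also called with the block, and DUSP7 and LRIG1 differed by −0.07 and −0.02. The call of NAB2 was lost without PT-G replicate 2 or p31-43 replicate 4, and that of SPRY1 without PT-G replicate 2, 3 or 4 or p31-43 replicate 3 or 4. SPRY2 lost its call without any array other than PT-G replicate 3 or p31-43 replicate 2, and RGS2 without any other than p31-43 replicate 2.

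**Figure D2:**
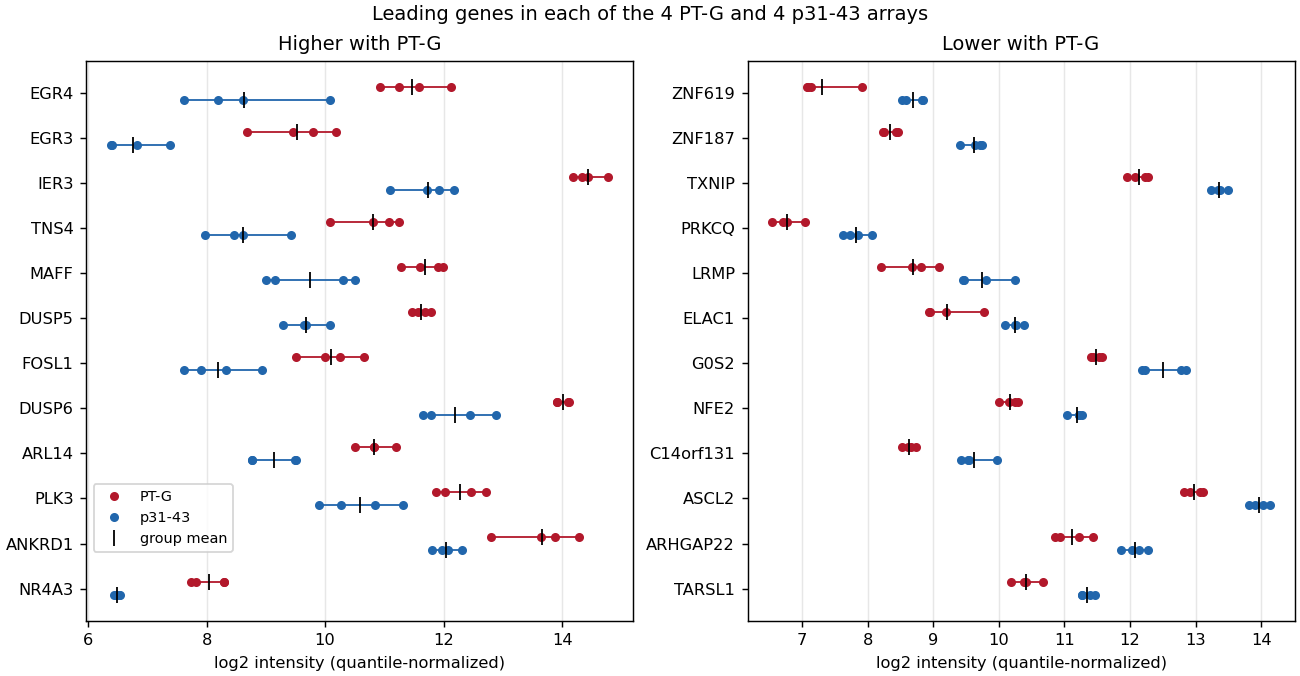
Log2 intensity (x axis) of the 12 leading genes in each direction on every PT-G (red) and p31-43 (blue) array, with lines for the range and ticks for the group means. The genes were chosen so that the PT-G and p31-43 arrays do not overlap, and the gap is widest for IER3 (2.02).

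Among the 30 immediate early factors examined, 14 were higher with PT-G and none was lower (46.7% called, against 1.13% of all probes). The list was drawn up with earlier results of these data known and includes the leading genes EGR4, EGR3, IER3, MAFF, FOSL1 and NR4A3. Its share is therefore a description. All 30 had a difference above 0, as did 20598 of all 41000 probes, and their median was 0.98, against 0.00 over all probes. Besides the leading genes, NR4A1 was 1.53 higher (SE 0.18, limma, adjusted p = 0.000859), with a further probe at 0.03. JUNB, an AP-1 subunit, differed by 1.48, ATF3, a stress-induced factor, by 1.21 and ZFP36, which speeds the decay of cytokine transcripts, by 1.20. KLF10, PHLDA1, KLF6 and BTG2 differed by 1.15, 1.10, 1.02 and 0.94. The best known members of the group were not among the called genes. EGR1 was 0.84 higher, with a 95% interval from −0.32 to 1.99, FOS 0.63 higher, with an interval from −0.31 to 1.57, and FOSB and JUN differed by 0.89 and 0.66. MYC was close to the threshold at 1.15 (limma, adjusted p = 0.0604). With the replicate number as a block MYC (limma, adjusted p = 0.0040), KLF4 and KLF2 were also called, the latter at 0.68 (limma, adjusted p = 0.019). FOSL2, CYR61 and CTGF lay near the bottom of the list, at 0.12, 0.20 and 0.27. The call of JUNB was lost without PT-G replicate 2 or p31-43 replicate 1 or 4, that of KLF6 without any single array other than p31-43 replicate 1, and that of ZFP36 without any other than PT-G replicate 3 or p31-43 replicate 2. The median of the list was 0.82 in experiments 1 and 2 and 1.11 in experiments 3 and 4.

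Cytokines and an adhesion molecule stood out among the NF-kB targets. Of 28 genes, 5 were higher with PT-G and none was lower (17.9% called, against 1.13% of all probes), with a median difference of 0.44. This list, too, was drawn up with earlier results of these data known. IL11, a cytokine of the IL6 family, lay at 9.32, 9.72, 9.33 and 9.41 with PT-G and at 8.05, 8.59, 7.75 and 8.19 with p31-43, and was 1.30 higher (SE 0.19, limma, adjusted p = 0.00488). CCL20, which attracts dendritic cells and Th17 cells to the gut epithelium, was 1.29 higher (SE 0.22, limma, adjusted p = 0.0116), and ICAM1, a ligand for leukocyte integrins, was 0.80 higher (SE 0.09, limma, adjusted p = 0.00082). NFKBIE, an inhibitor of NF-kB, differed by 0.51, a call that was lost whichever array was left out. IL8, the neutrophil chemokine, was well above background on 4 of 4 PT-G arrays and on 0 of 4 p31-43 arrays, and was at least 1.71-fold higher with PT-G (limma, adjusted p = 0.0116). NFKB1, TNF and CXCL10 differed by 0.04, 0.07 and 0.03. RELA, the transactivating subunit of NF-kB, differed by −0.31 (limma, adjusted p = 0.775). With the replicate number as a block, 10 of the 28 were called, against 4.42% of all probes, and the 5 added genes were CXCL1, LIF, CXCL3, RELB and NFKBIB. CXCL1, another neutrophil chemokine, differed by 1.42 (limma, adjusted p = 0.229 without the block and 0.0017 with it).

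Among ligands of the EGF receptor AREG and HBEGF were called, and no protease receptor was called without a block. AREG, or amphiregulin, was among the most intense transcripts of the cells, at 16.47, 16.56, 16.79 and 16.30 with PT-G and at 15.98, 15.38, 15.89 and 15.53 with p31-43. It was 0.84 higher with PT-G (SE 0.17, limma, adjusted p = 0.0283), a call lost without PT-G replicate 1, 2 or 3 or p31-43 replicate 2 or 4. HBEGF, a related ligand, was 0.78 higher (SE 0.13, limma, adjusted p = 0.00795). These were the only called genes among 14 ligands, receptors and sheddases (14.3% called, against 1.13% of all probes). The median difference of the 14 was 0.03, and EGFR differed by 0.09. EREG, or epiregulin, differed by 0.89 and was called with the replicate number as a block (limma, adjusted p = 0.033, against 0.469 without it). None of 19 genes of protease receptors and the plasminogen system was called. PLAUR, the urokinase receptor, differed by 0.78 (limma, adjusted p = 0.689) and F2RL1, the receptor activated by trypsin, by 0.68 (limma, adjusted p = 0.559). With the replicate number as a block, PLAUR (limma, adjusted p = 0.0033), F2RL1 (limma, adjusted p = 0.031) and PLAU (limma, adjusted p = 0.024) were called. These were 3 of the 19 genes, against 4.42% of all probes with that block. TNS4 was the only called gene of 19 in epithelial adhesion and migration (5.26%, against 1.13% of all probes), whose median difference was 0.10. EPHA2 and ITGA6 were added by the block, with differences of 1.26 and 0.53.

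A list drawn up around the reported actions of p31-43 held 1 called gene, and a place in it does not stand for a reported link. Of its 22 genes of innate recognition, stress ligands and endosome traffic, 1 was called (4.55%, against 1.13% of all probes). This gene, the death receptor TNFRSF10B, was 0.80 higher with PT-G (SE 0.17, limma, adjusted p = 0.0428), a call lost whichever array was left out. The median difference over the 22 genes was 0.00. IL15, a cytokine central to intraepithelial lymphocytes, differed by −0.12, with a 95% interval from −0.43 to 0.18 (limma, adjusted p = 0.987). TGM2, the transglutaminase that deamidates gliadin, differed by −0.42, with an interval from −0.83 to −0.02 before adjustment (limma, adjusted p = 0.546). MICA and MICB, stress ligands of the NKG2D receptor, differed by 0.08 and 0.75, and MICB was called with the replicate number as a block (limma, adjusted p = 0.0082). HGS, EEA1 and RAB5A, of early endosomes, differed by −0.01, 0.09 and 0.22. None of 25 interferon response genes was called, and their median difference was 0.00. MX1 and ISG20 had the largest differences of that list, 0.54 and 0.37.

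**Figure D3:**
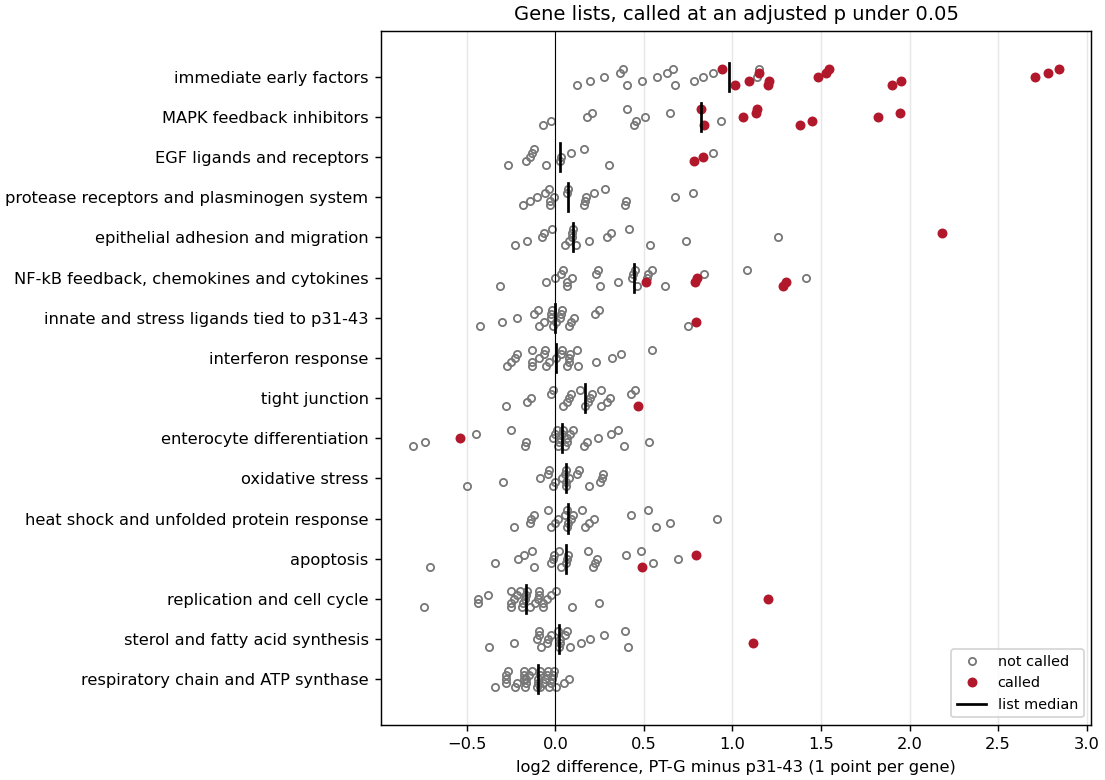
Log2 difference (PT-G minus p31-43, x axis) of every gene in 16 lists (rows), with filled points for called genes, open points for the others and a bar at the median. Immediate early factors (median 0.98) and MAPK feedback inhibitors (0.82) are shifted to the right, whereas the interferon list is centred on 0.00.

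The lists that describe the epithelium itself held 1 called gene each. CLDN3, a claudin that seals tight junctions, lay at 11.42, 11.44, 11.45 and 11.41 with PT-G and at 10.72, 11.08, 11.12 and 10.93 with p31-43. It was 0.47 higher (SE 0.08, limma, adjusted p = 0.0119), as the only called gene of 21 in the tight junction list (4.76%, against 1.13% of all probes). OCLN, or occludin, was added at 0.45 with the replicate number as a block (limma, adjusted p = 0.045, against 0.946 without it). In the list of 27 enterocyte differentiation genes the called share was 3.7%, and the median difference was 0.04. CEBPA, CDX2 and KRT20 were called with the replicate number as a block, at −0.80, −0.74 and 0.53, and not without it. Villin (VIL1), sucrase-isomaltase (SI) and dipeptidyl peptidase (DPP4) differed by −0.02, 0.31 and 0.03.

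In stress, survival and metabolism no list had more than 2 called genes. None of 19 oxidative stress genes and none of 23 heat shock and unfolded protein genes was called, with PGD and CAT at −0.50 and −0.30 and PPP1R15A and TRIB3 at 0.91 and 0.65. With the replicate number as a block PGD was called in the former and XBP1, TRIB3 and PPP1R15A in the latter. Of 24 apoptosis genes, 2 were called (8.33%, against 1.13% of all probes), TNFRSF10B and MCL1. MCL1, which protects mitochondria, was 0.49 higher (SE 0.09, limma, adjusted p = 0.0229), and was not called without PT-G replicate 3 or 4 or p31-43 replicate 2, 3 or 4. TNFRSF10A, another death receptor, was added at 0.69 with the block (limma, adjusted p = 0.038, against 0.140 without it). CDKN1A, the cyclin-dependent kinase inhibitor p21, was 1.20 higher (SE 0.26, limma, adjusted p = 0.0403), the only called gene of 28 in replication and cell cycle (3.57%). It was not called without any single array other than PT-G replicate 3 or p31-43 replicate 2. In that list only 4 genes differed above 0 and the median was −0.16, and MCM5 and CCNA2 were added as lower with the block, at −0.74 and −0.43. None of 33 genes of the respiratory chain and ATP synthase was called. Their median was −0.10, with 3 genes above 0. With the background-subtracted signal it was −0.02 with 15 genes above 0, but that scaling also moved the median of all probes from 0.00 to 0.10. SDHC and NDUFA9 lay at −0.34 and −0.28.

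The genes that were measured by qRT-PCR in the same study, and B2M to which they were normalized, were not called on these arrays. KLF4 differed by 1.14 (limma, adjusted p = 0.193), SPRED1 by 0.65 (limma, adjusted p = 0.486), CEBPA by −0.80 (limma, adjusted p = 0.152) and C6orf125, the gene of mitochondrial nucleoid factor 1, by −0.28 (limma, adjusted p = 0.949). B2M differed by −0.15. With the replicate number as a block KLF4 (limma, adjusted p = 0.019), SPRED1 (limma, adjusted p = 0.038) and CEBPA (limma, adjusted p = 0.005) were called. These genes were chosen by the study on these arrays.

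The leading genes that were lower with PT-G were of other kinds. ZNF619, a zinc finger protein, lay at 7.08, 7.09, 7.92 and 7.14 with PT-G and at 8.83, 8.59, 8.84 and 8.53 with p31-43. PT-G replicate 3 stood apart from the other PT-G arrays, and the difference was −1.39 (SE 0.25, limma, adjusted p = 0.0144). ZNF187, now named ZSCAN26, lay at 8.23, 8.25, 8.44 and 8.47 with PT-G and at 9.74, 9.64, 9.41 and 9.71 with p31-43, with little spread in either group. It differed by −1.28 (SE 0.10, limma, adjusted p = 5.69e-05), and its other probe by −1.36. TXNIP, which binds thioredoxin and restrains glucose uptake, lay at 12.28, 12.23, 11.95 and 12.08 with PT-G and at 13.49, 13.37, 13.34 and 13.23 with p31-43. TXNIP was 2.33-fold higher with p31-43 (a difference of −1.22, SE 0.14, limma, adjusted p = 0.00082), and the difference within an experiment varied only from −1.38 to −1.14.

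Several of the genes that were lower encode regulators of signalling or transcription. PRKCQ, the theta isoform of protein kinase C, lay at 6.71, 6.77, 7.04 and 6.55 with PT-G and at 7.86, 7.63, 8.07 and 7.73 with p31-43, and differed by −1.05 (SE 0.11, limma, adjusted p = 0.00059). ASCL2, a WNT-dependent factor of intestinal stem cells, lay at 13.07, 12.83, 12.92 and 13.11 with PT-G and at 14.13, 14.02, 13.81 and 13.90 with p31-43. ASCL2 differed by −0.98 (SE 0.12, limma, adjusted p = 0.00115), and its other probe by −0.38. NFE2, a leucine zipper factor, differed by −1.02 (SE 0.10, limma, adjusted p = 0.000274), and ARHGAP22, a GTPase-activating protein for RAC, by −0.97 (SE 0.14, limma, adjusted p = 0.00435). G0S2, an inhibitor of fat breakdown, differed by −1.03 (SE 0.16, limma, adjusted p = 0.00585). The others were LRMP (now IRAG2) at −1.04, ELAC1, a nuclease that trims transfer RNA, at −1.03, C14orf131 (now ZNF839) at −0.99 and TARSL1 (now TARS2), the mitochondrial threonyl-tRNA synthetase, at −0.93. ELAC1 was nearest to the threshold (limma, adjusted p = 0.0470) and was not called after median scaling, with an intensity trend or without any single array other than PT-G replicate 3. LRMP was not called without PT-G replicate 1, 2 or 3 or p31-43 replicate 2 or 4, and ZNF619 was not called without PT-G replicate 2 or p31-43 replicate 1.

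ZSCAN26 lies on chromosome 6 in a row of genes for zinc finger proteins, many of which carry the SCAN domain, a dimerization motif. This neighbourhood was examined after the values had been seen, so its counts are a description. Of the 12 protein-coding genes to either side of ZSCAN26, and that gene itself, 22 had a probe. Of these, 9 have a symbol beginning with ZNF, ZSCAN or ZKSCAN and are taken here as the zinc finger genes. SCAND3, which the array names ZNF452, was counted with the others. Of the 9, 5 had a probe called lower with PT-G, including ZSCAN26, around which the stretch was chosen. Over the whole array 0.454% of probes were called lower, a share per probe and not per gene. The 5 were ZSCAN26, ZKSCAN3 at −0.87, ZSCAN9 at −0.85, ZKSCAN4 at −0.74 and ZSCAN16 at −0.63. The median over the 9 genes was −0.63, and ZNF165 was the only member above 0, at 0.64 without passing the test. Of the other 13 genes in the same stretch, among them histone and olfactory receptor genes, none was called and the median was −0.03. Several of these were near background, where a call is hardly possible. OR2B2, NKAPL and GPX6 were well above background on 0 of the 8 arrays, and OR2B6, OR2W1 and each SCAND3 probe on at most 1. Among the zinc finger genes ZKSCAN8 was so on 0. Over the whole array, 664 probes had a gene name beginning with ZNF, of which 17 (2.56%) were lower with PT-G and 3 (0.452%) were higher, with a median of −0.08. The 17 include the called probes of the stretch above, which the array also names ZNF.

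**Figure D4:**
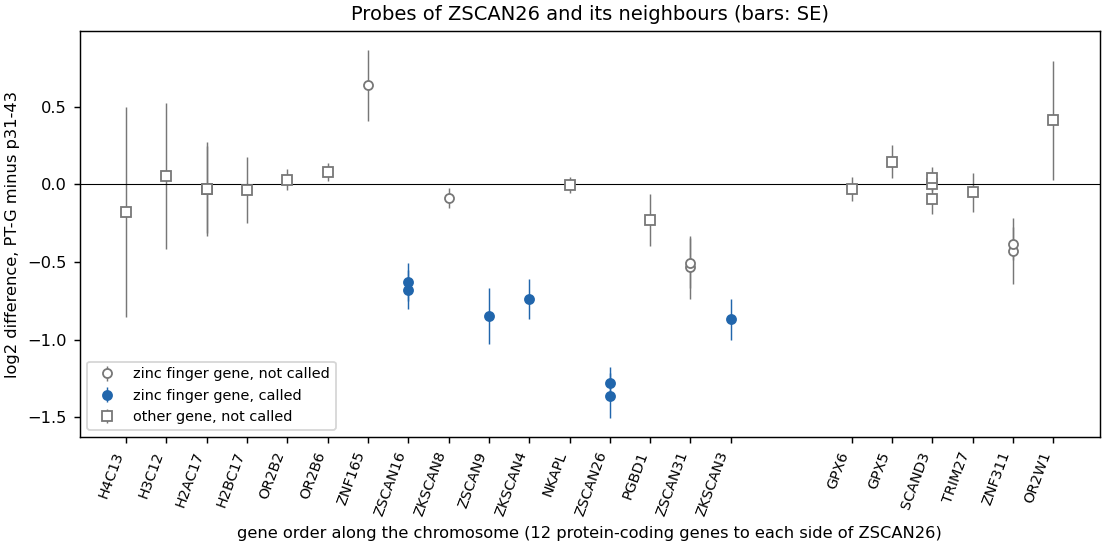
Log2 difference (PT-G minus p31-43, y axis, bars for the SE) of each probe for ZSCAN26 and its neighbours in gene order (x axis), circles for zinc finger genes and squares for others, filled where called. Called probes of 5 zinc finger genes lie between −1.36 and −0.63, whereas the 13 other genes, several of them near background, hold no called probe.

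The other conditions were set beside these values for the leading genes. The PT-G and PT arrays are compared with the same p31-43 arrays, so these values are not independent. With the digestion mix alone (PT), all 24 leading genes lay on the same side of p31-43 as with PT-G, and 21 of the 24 were called for PT (0.746% of all probes were called in that comparison). PT minus p31-43 was 2.85 for EGR4, 2.61 for IER3, 1.76 for DUSP5, −1.62 for ZNF187 and −0.96 for TXNIP. The genes not called for PT were ARL14, ANKRD1 and LRMP, at 1.31, 1.21 and −0.95. The direct difference between PT-G and PT was at most 0.40 in size among the 24. For IER3 it was 0.10, with a 95% interval from −0.41 to 0.60, and for EGR4 it was −0.01, with the much wider interval from −1.18 to 1.17. For ZNF187 it was 0.34, with an interval before adjustment from 0.12 to 0.56 that leaves out 0, PT lying further from p31-43 than PT-G did. No probe was called between PT-G and PT in limma (0.0% of all probes), while 314 had an unadjusted p under 0.05. PT-G cultures received the enzyme mix and the digested gliadin together, and the share of each in the difference from p31-43 was not tested.

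In all 24 leading genes the p31-43 mean was nearer to the MED-CTL mean than the PT-G mean was. EGR4 lay on average at 8.48 in MED-CTL, 8.63 with p31-43 and 11.47 with PT-G, and TXNIP at 13.52, 13.36 and 12.14. ANKRD1 was the leading gene with the largest distance between p31-43 and MED-CTL, with 12.04 and 12.46, against 13.65 with PT-G.

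**Figure D5:**
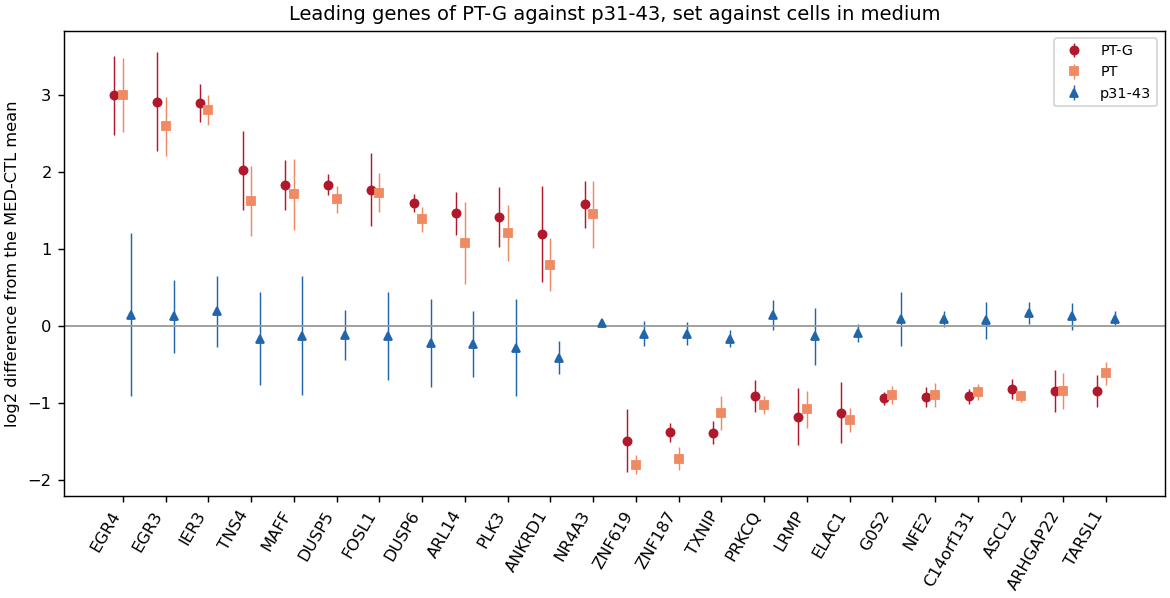
Mean log2 difference from the MED-CTL mean (y axis) for the 24 leading genes with PT-G (circles), PT (squares) and p31-43 (triangles). Bars show the SD of the 4 arrays of the treatment, and the spread of MED-CTL is not drawn. PT-G and PT lie on the same side of 0 for every gene, at most 0.40 apart. The p31-43 means lie nearer to 0 than the PT-G means, furthest from 0 for ANKRD1 (−0.41).

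The differences were also taken apart by experiment. The arrays of experiments 1 and 2 were scanned on 1 date, before those of experiments 3 and 4, and p31-43 replicate 4 was scanned on another date than the other arrays of the latter pair. The difference for EGR4 was 2.50 in the former pair and 3.18 in the latter, for EGR3 2.18 and 3.38, for IER3 2.37 and 3.05, for DUSP6 1.25 and 2.39, and for TXNIP −1.18 and −1.27. A test of whether the difference changed between the pairs called no probe in limma, while 537 had an unadjusted p under 0.05. In experiments 1 to 3 the PT-G and p31-43 arrays lay on the same slide, and in experiment 4 on separate slides.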

How the data were processed

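Single-colour Agilent arrays were hybridised with RNA of Caco-2 cells. The authors' image analysis (Feature Extraction 9.5.3.1, per the file headers) recorded a linear intensity per spot, with marks for control spots, outliers and spots well above background. The authors deposited log2 values, which differ from the log2 median foreground intensity after quantile normalization over all spots by at most 5e-09, with no background subtraction. Labels name limma for the authors' processing, without a version.

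The 1639 control spots of 45015 were left out and the log2 values of spots with the same probe were averaged, giving 41000 probes. A single limma model (3.58.1, R 4.3.3) of the 4 groups of 4 arrays gave moderated 2-sided tests with 12 residual and 1.89 prior degrees of freedom. The smallest p of an exact permutation test with 4 arrays per group is 0.0286, and none was run for single genes. Figures and summaries used Python 3.11.15. The model was tested on simulated data. Signal over background stands for depth, and precision is limited by the number of arrays.

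Candidates were named genes that were called, did not overlap between the groups and were well above background on all 4 arrays of the higher group. Leading genes are the 12 candidates of largest difference in each direction. Further rules named every called member of 16 gene lists, the 2 members of largest difference where a list had none, and the 6 genes measured by qRT-PCR. A gene in a list is represented by its brightest probe. Genes added by the replicate block and other list members given with values were chosen after their values were seen. The members and lists were chosen with earlier results of these data known. Some genes that meet these rules are not reported here. Array names were kept; 23434 of 24863 RefSeq accessions matched a current symbol.

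Replicate numbers are taken to mark the independent experiments, which the labels do not state. Deviations from the group mean of PT-G and p31-43 arrays with the same number correlated across probes at 0.558, 0.675, 0.836 and 0.732. The highest correlation of each PT-G array with a p31-43 array of another number was 0.573, 0.380, −0.135 and −0.032. The values thus pair the arrays of replicates 2 to 4 by number. PT-G and p31-43 arrays of the same number also shared a run, and those of replicates 1 to 3 a slide. A shared culture experiment and a shared run or slide therefore cannot be told apart. PT-G replicate 1 correlated slightly more with a p31-43 array of another number, so its pairing rests on the label. Alternatives were other signals and scalings, a filter on dim probes, blocks for the replicate number, the run (arrays of the same date), the slide and the scan batch, a fit of 2 groups, an intensity trend, every spot on its own, and leaving out each array. Values of 0 columns belonged to other series.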

Additional observations from a re-analysis of the deposited data

Results flagged for a closer look

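In 2 of the 136 groups of 4 arrays examined for the named genes, a single array stood far from the other 3, where chance gives about 1 in 20. ZNF619 lay at 7.92 on PT-G replicate 3 and between 7.08 and 7.14 on the other PT-G arrays. TRIB3, a pseudokinase of the stress response, lay at 15.92 on PT-G replicate 4 and between 16.52 and 16.58 on the others.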

How the results depend on the processing

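The count of 464 probes between PT-G and p31-43 was 474 without outlier spots, 480 with normexp, 349 after a filter on dim probes and 539 with every spot on its own. It was 238 with background-subtracted signals aligned at the 75th percentile and 230 after median scaling, which moved the median difference of all probes by 0.10 and 0.11, 118 with only the 2 groups in the fit and 247 with an intensity trend. A block for the replicate number gave 1814, and 2828 with only the 2 groups, the run 2556, the slide 3161 and the scan batch 1185. Leaving out 1 array gave 201 to 344. For PT minus p31-43, with 306 probes, the background-subtracted signal gave 164, median scaling 163, the replicate block 1430, the replicate block with 2 groups 700, the run 2023, the slide 2952, the batch 877 and the trend 155, and leaving out 1 array gave 138 to 237. PT-G minus PT stayed at 0 in every alternative run. None of the 68 genes named by the rules changed direction in the alternative fits per probe. Other genes given in the text near 0 could do so. Of the 19 MAPK feedback inhibitors 17 lay above 0, and 18 with background-subtracted signals or median scaling. With only the 2 groups in the fit 10 of the 24 leading genes were not called, which leaves fewer arrays to estimate the spread, and each of the 24 was called with every block. Spread between experiments and the 4 arrays per group limit what could be called, and 8411 probes were well above background on none of the 8 arrays.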

Other observations

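Among the called genes outside the lists, all chosen here after their values were seen, several regulators were higher with PT-G. EDN1, the vasoconstrictor endothelin, lay between 13.79 and 14.44 with PT-G and between 12.17 and 13.28 with p31-43, a difference of 1.53 (SE 0.26, limma, adjusted p = 0.0113). RGS16, which shortens G protein signalling, differed by 1.49 and GEM and RRAD, small GTPases that restrain calcium channels, by 1.42 and 1.37. TRIB1, a pseudokinase that directs protein degradation, differed by 1.37 and MAP3K8, a kinase that activates ERK, by 1.20. PTGS2, the inducible cyclooxygenase, differed by 1.10, GDF15, a stress hormone, by 1.27 and BMP2, a ligand of the TGF-beta family, by 1.13. BHLHB2 (now BHLHE40) and NR1D1, repressors of the circadian clock, differed by 1.27 and 1.41. HSPA6, a heat shock gene outside the list, differed by 1.47 (SE 0.21, limma, adjusted p = 0.00459), while none of the 23 listed heat shock and unfolded protein genes was called.

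A gene of WNT signalling and a growth factor were among those that were lower with PT-G. AXIN2, a feedback inhibitor induced by WNT signals, lay between 11.45 and 11.95 with PT-G and between 12.16 and 12.91 with p31-43, a difference of −0.84 (SE 0.17, limma, adjusted p = 0.0341), and its other probes differed by −0.70 and −0.78. FGF9, a growth factor, differed by −0.68.

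DIDO1, a chromatin protein with several transcript forms, had probes called in opposite directions. The probe for 1 form lay between 12.40 and 13.15 with PT-G and between 11.51 and 11.94 with p31-43, a difference of 0.93 (SE 0.18, limma, adjusted p = 0.0241). The probe for another form lay between 9.59 and 9.93 with PT-G and between 10.81 and 11.29 with p31-43, a difference of −1.24 (SE 0.14, limma, adjusted p = 0.000743). The remaining probes differed by 0.33 and −0.53 and were not called. Both are annotated to the same further form, so probes of a single form also differed in direction.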
